A study of Danio rerio with 6 samples.

Results

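AP-2 transcription factors bind GC-rich DNA as dimers and act early in ectoderm, where they help to set up the neural crest, the embryonic cell population that gives rise to melanocytes. In the zebrafish, tfap2a is required in neural crest and for its pigment cells, tfap2c acts redundantly with it in crest induction, and tfap2e acts redundantly with it in melanocytes. The gene tfap2b is known from crest, skin and pigment stem cells of the zebrafish, and tfap2d is known from the developing nervous system of vertebrates. All 5 genes were looked up by name among the 27126 gene names of the count table, and each had a single entry, so no member was left out. Of these, tfap2a, tfap2c and tfap2e passed the filter on low counts and were tested, and tfap2b and tfap2d did not pass it.

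The counts come from 6 bulk RNA libraries, 3 of ZMEL1 and 3 of ZMELR1. ZMEL1 is a GFP+ line grown from a single melanoma of a fish that carried human oncogenic BRAF under the melanocyte promoter mitfa, was homozygous mutant for p53 and mitfa (p53-/-; mitfa-/-), and had received the miniCoopR cassette, an mitfa minigene behind its own mitfa promoter. ZMELR1 was derived once from ZMEL1 by long culture with a BRAF inhibitor, so both lines share that genotype and each stands for a single tumor and a single selection. Both were grown in DMEM with 10% FCS at 28.5 °C, ZMEL1 in DMSO and ZMELR1 with PLX4032 (vemurafenib) at 1 μM, so the selected state and the drug in the medium cannot be told apart. The study describes the libraries of a line as independent biological replicates. In bulk RNA a lower value can mean fewer cells of a type or less RNA per cell, and these cannot be told apart either.

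The total count was between 42591832 and 83741911 reads per library, lowest in ZMELR1 replicate 3, a library that also had the lowest level of DNA replication and mitosis transcripts. These totals exceed the reads per sample that the paper states, and the reason was not tested. Levels are in CPM (a gene's counts as a share of the library, scaled by TMM). The words rose and fell mark genes past an adjusted p of 0.05 in edgeR's quasi-likelihood test, adjusted over all 16589 genes tested. Differences between lines are given as log2FC, the log2 fold change of ZMELR1 over ZMEL1, with its standard error (SE). In edgeR the SE was derived from the test, as the absolute log2FC divided by the square root of the F statistic. Transcript lengths were not used, so levels of single genes were compared between libraries and not between genes. Where levels are summed over a list, a gene's part in the sum is a part of the reads, not of the transcripts. As a check on the labelled cell type, the pigment lineage regulators mitfa and sox10 stood at 429 to 949 and 384 to 608 CPM, and the pigment enzyme and matrix genes dct, tyr, tyrp1b and pmela were detected in every library, between 1.13 and 28.5 CPM. The neural crest gene foxd3 had 0 counts in all 6 libraries.

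Transcripts of tfap2c and tfap2e rose in ZMELR1, and those of tfap2a were higher in every ZMELR1 library without passing the test. The log2FC was 0.99 for tfap2a, 1.17 for tfap2c and 1.33 for tfap2e, or 1.98-fold, 2.25-fold and 2.51-fold. Over all genes tested the median log2FC was 0.02, and 6.29% of genes passed the test, with 3.62% that rose and 2.68% that fell. In each of these 3 genes the lowest ZMELR1 library lay above the highest ZMEL1 library, a pattern that 17% of all genes tested showed. The genes tfap2b and tfap2d were close to silent in both lines.

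**Figure D1:**
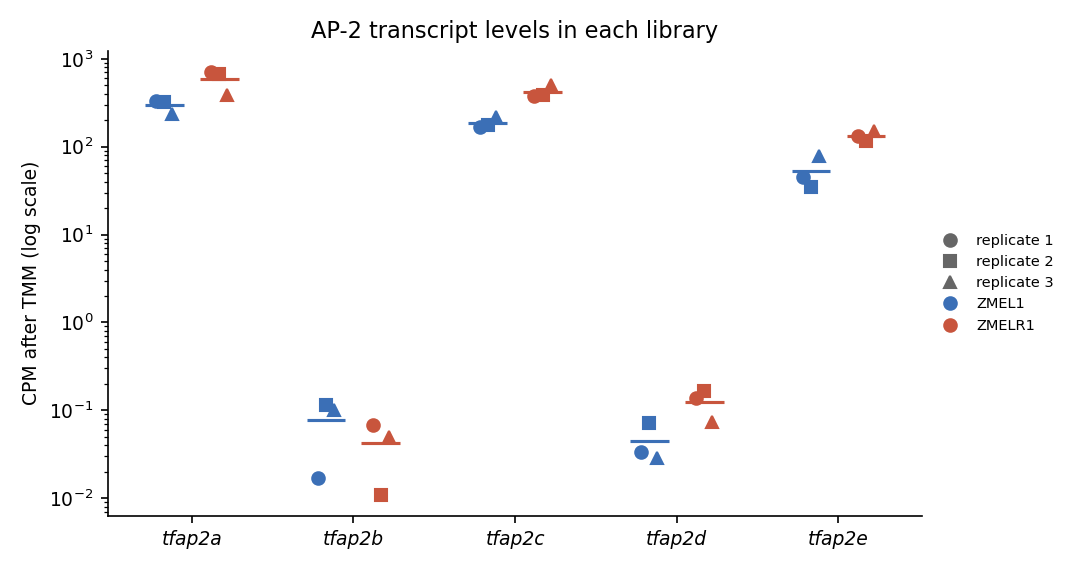
Level of each AP-2 gene in CPM after TMM (log scale) in the 6 libraries, with ZMEL1 in blue, ZMELR1 in red, a marker shape for each replicate number and a bar at the mean of 3 libraries. For tfap2a, tfap2c and tfap2e all 3 red points lie above all 3 blue points, from 34.6 CPM in the lowest library to 709 CPM in the highest, while tfap2b and tfap2d stay at 0.165 CPM or less.

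The gene tfap2c, which in zebrafish embryos shares the induction of the crest with tfap2a, had 168, 176 and 218 CPM in ZMEL1 replicates 1, 2 and 3. In ZMELR1 it had 373, 383 and 508 CPM in replicates 1, 2 and 3. Every ZMELR1 library stood above every ZMEL1 library, and replicate 3 was the highest of its line in both lines. The means were 187 ± 27.3 CPM (SD, n = 3) and 421 ± 75.1 CPM (SD, n = 3), a log2FC of 1.17 (SE 0.198, edgeR adjusted p = 0.019). Between libraries of the same replicate number the rise was nearly the same, at 2.23-fold, 2.18-fold and 2.32-fold in replicates 1, 2 and 3. Leaving out ZMEL1 replicate 1, ZMEL1 replicate 2 or ZMELR1 replicate 1 ended the call (edgeR adjusted p = 0.0869, 0.0847 and 0.0546), and it held without each of the other libraries. In the fits that lost the call the log2FC was 1.09, 1.11 and 1.25, with 2 libraries left in 1 of the lines.

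The gene tfap2e, which acts beside tfap2a in zebrafish melanocytes, had 45.1, 34.6 and 78.2 CPM in ZMEL1 replicates 1, 2 and 3. In ZMELR1 it had 131, 116 and 150 CPM, all above the highest ZMEL1 library. The spread was wide in ZMEL1, where replicate 3 stood well above the others, and narrow in ZMELR1, with means of 52.6 ± 22.7 CPM (SD, n = 3) and 132 ± 17.1 CPM (SD, n = 3). The log2FC was 1.33 (SE 0.305, edgeR adjusted p = 0.0489), just inside the threshold. Between libraries of the same number tfap2e was 2.91-fold, 3.34-fold and 1.91-fold higher in replicates 1, 2 and 3. The call held without ZMEL1 replicate 3 (edgeR adjusted p = 0.0218, log2FC 1.70) and was lost when any other library was left out, with adjusted p between 0.075 and 0.169.

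The gene tfap2a, whose loss in zebrafish reduces neural crest derivatives, had 332, 325 and 236 CPM in ZMEL1 replicates 1, 2 and 3. In ZMELR1 it had 709, 679 and 383 CPM. The lines did not overlap, but replicate 3 was the lowest of its line in both, and ZMELR1 replicate 3 lay closer to the ZMEL1 libraries than to the other ZMELR1 libraries. The means were 298 ± 53.5 CPM (SD, n = 3) and 591 ± 180 CPM (SD, n = 3), a log2FC of 0.99 (SE 0.277, edgeR adjusted p = 0.0844), which did not pass.

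The replicate number marked pairs of libraries across the lines, as described with the processing. The outcome for tfap2a depended on the tool and, in edgeR, on whether the pairs were used. With all libraries and no block it passed in DESeq2 (log2FC 0.96, adjusted p = 0.0231) and not in limma-voom (adjusted p = 0.101). With the replicate number as a block, tfap2a rose in ZMELR1 by a log2FC of 0.95 (SE 0.130, edgeR adjusted p = 0.00882), in a fit that called 24.9% of all genes, with 12.9% higher and 12% lower. Between libraries of the same number tfap2a was 2.14-fold, 2.09-fold and 1.62-fold higher in replicates 1, 2 and 3. Without ZMELR1 replicate 3 and no block, tfap2a passed as well (log2FC 1.22, edgeR adjusted p = 0.0236). That library is its lowest of ZMELR1, so leaving it out raises the difference by itself. When any other single library was left out, tfap2a did not pass (edgeR adjusted p = 0.178 to 0.208). It also passed without replicate 3 of both lines (log2FC 1.04, edgeR adjusted p = 0.0407).

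**Figure D2:**
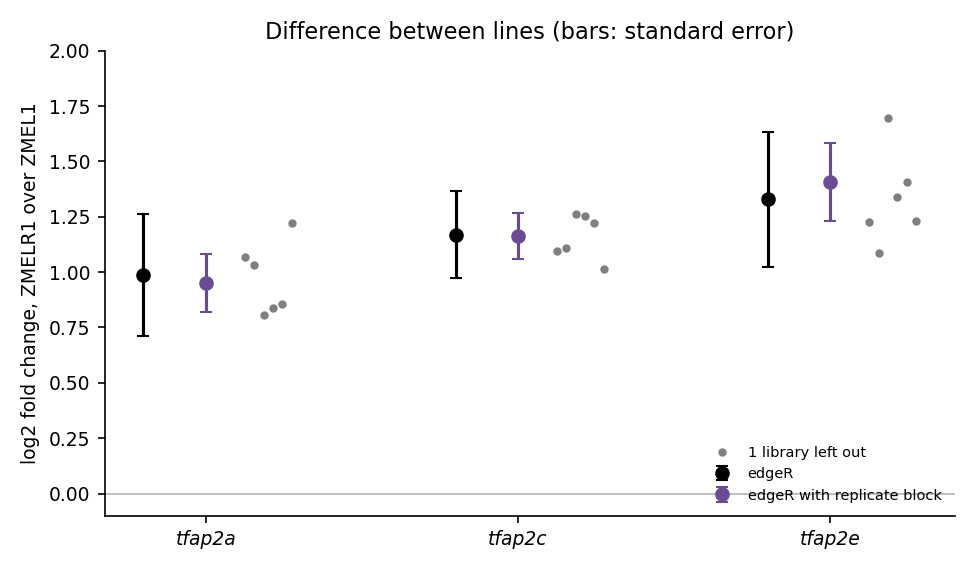
Log2 fold change of the 3 tested AP-2 genes, ZMELR1 over ZMEL1, by edgeR without and with the replicate number as a block (bars, standard error) and after leaving out 1 library at a time (grey points). All values lie above 0, and the standard error of tfap2a is 0.277 without the block and 0.130 with it.

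Between replicates of a line tfap2a moved apart from tfap2c and tfap2e. In replicate 3 tfap2a was below the mean of its line, by log2 deviations of -0.32 in ZMEL1 and -0.57 in ZMELR1. In the same libraries tfap2c deviated by 0.23 and 0.28, and tfap2e by 0.66 and 0.19. Replicate 3 therefore held less tfap2a RNA and more tfap2c and tfap2e RNA than the other replicates of the same line, in ZMEL1 and in ZMELR1.

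Because gene length cancels when the same ratio is compared between libraries, the counts of tfap2a were divided by those of tfap2c. In replicates 1, 2 and 3 the ratio was 1.98, 1.85 and 1.08 for ZMEL1, and 1.90, 1.77 and 0.755 for ZMELR1. It followed the replicate number more than the line, lying between 1.77 and 1.98 in the 4 libraries of replicates 1 and 2 and between 0.755 and 1.08 in those of replicate 3. Within pairs of the same number the log2 ratio differed by -0.060, -0.062 and -0.52, ZMELR1 minus ZMEL1. The ratio of tfap2e to tfap2c was 0.269, 0.197 and 0.358 in ZMEL1 and 0.351, 0.302 and 0.295 in ZMELR1. Its within-pair log2 differences were 0.39, 0.62 and -0.28, so the direction turned in replicate 3. The ratio of tfap2a to tfap2e was 7.37, 9.41 and 3.02 for ZMEL1 and 5.41, 5.88 and 2.56 for ZMELR1. It was lower in ZMELR1 within each of the 3 pairs, by log2 differences of -0.45, -0.68 and -0.24, while the ranges of the lines overlapped. These ratios are given as values, with no test.

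**Figure D3:**
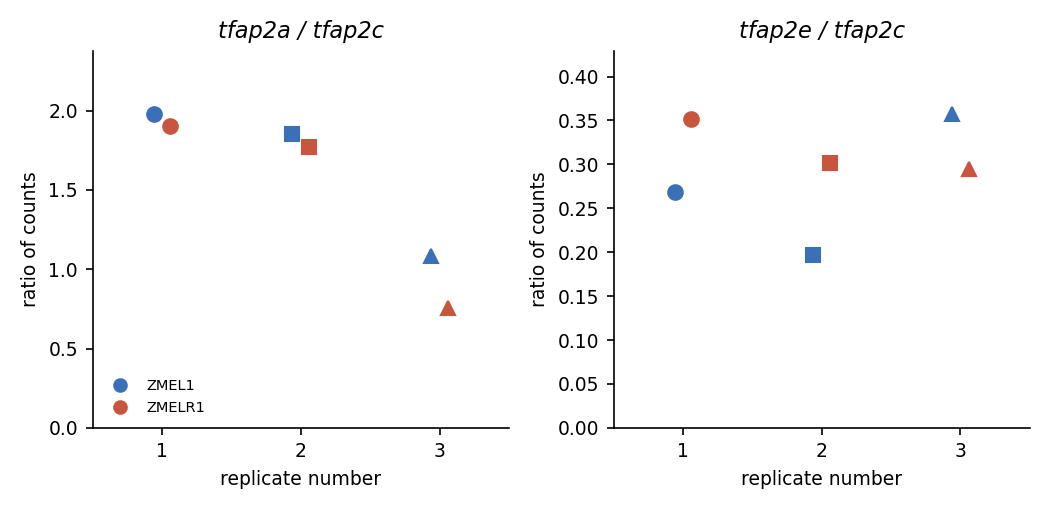
Ratio of the counts of tfap2a to tfap2c (left) and of tfap2e to tfap2c (right) by replicate number, ZMEL1 in blue and ZMELR1 in red. On the left the points of replicate 3, at 1.08 and 0.755, lie below those of replicates 1 and 2, between 1.77 and 1.98, and the lines lie side by side within replicates 1 and 2.

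Replicate 3 of ZMELR1 also stood apart in transcripts of DNA replication and mitosis. With each of 22 such genes centred on its own mean, their median log2 level was 0.65, 0.62 and 0.27 in the ZMEL1 libraries (replicates 1, 2 and 3) and -0.17, 0.23 and -1.64 in the ZMELR1 libraries. All 22 had a negative log2FC, with a median of -0.83, and their summed level was 2983 to 3840 CPM in ZMEL1 and 879 to 2581 CPM in ZMELR1. None of the 22 passed edgeR's test between the lines, and 7 were lower at an unadjusted p under 0.05. At least 3456 of all 16589 genes tested met that p in either direction, a lower bound taken from the rank of pmela by p. The full number is not given here, nor is it split by direction. With DESeq2 5 fell, with limma-voom none, and with the block 9, where 12% of all genes fell. DESeq2 called 2357 of the 16589 genes, counted in either direction. The part of this difference in the tfap2a, tfap2c and tfap2e values was not tested.

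The remaining AP-2 genes had few reads. In replicates 1, 2 and 3, tfap2b had 1, 8 and 7 counts for ZMEL1 and 4, 1 and 2 counts for ZMELR1. The lines overlapped, and the pooled level was 0.0805 CPM in ZMEL1 (95% exact Poisson interval 0.0460 to 0.131) and 0.0369 CPM in ZMELR1 (0.0148 to 0.0760). The ratio of ZMELR1 to ZMEL1 was 0.459, with a 95% interval of the counting error from 0.159 to 1.18, so a difference was not detectable at this depth.

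For tfap2d the counts were 2, 5 and 2 in ZMEL1 and 8, 15 and 3 in ZMELR1 replicates 1, 2 and 3. Replicate 3 of ZMELR1, at 0.0743 CPM, lay barely above the highest ZMEL1 library, at 0.0715 CPM. The ratio of ZMELR1 to ZMEL1 was 3.03 (95% interval of the counting error 1.38 to 7.34). These intervals leave out the spread between cultures. When all genes with at least 1 count were fitted, neither gene passed (edgeR adjusted p = 0.494 for tfap2b and 0.199 for tfap2d). In the RefSeq annotation of the GRCz12tu assembly tfap2b and tfap2d are direct neighbours among protein-coding genes, while tfap2a, tfap2c and tfap2e each stand apart from other AP-2 genes.

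Each tested AP-2 gene was then compared with all other tested genes, as a description of likeness. The measure was the root mean square difference of log2 CPM over the 6 libraries, after each gene's mean was removed. It takes in the differences between lines and between replicates, so the closest genes share these patterns by the way they were picked. Closest to tfap2a were the pocket protein gene rbl2 (0.098) and the ribosomal S6 kinase gene rps6ka1 (0.101), where the median over all genes was 0.684. The gene rbl2 had 12.6, 12.3 and 9.98 CPM in ZMEL1 and 24.3, 23.7 and 14.3 CPM in ZMELR1. Its low value in replicate 3 of each line is part of the likeness it was picked by. Closest to tfap2c were oxr1a (0.075), which protects cells against oxidative damage, the ubiquitin ligase gene nedd4l (0.081) and the forkhead factor gene foxc1b (0.081). All of these rose in ZMELR1, by log2FC values of 1.15, 1.03 and 1.09 (edgeR adjusted p = 0.026, 0.0215 and 0.0489), although the call of foxc1b was lost when any 1 library was left out. Leaving out any 1 library but ZMELR1 replicate 3 ended the call of oxr1a (edgeR adjusted p = 0.0691 to 0.103), and that of nedd4l was lost without ZMEL1 replicate 1 or 2 or ZMELR1 replicate 1 or 2 (0.0572 to 0.0931).

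Closest to tfap2e were chrdl2 (0.115), which encodes a chordin-like antagonist of BMP ligands, the ephrin gene efnb2b (0.128) and slc2a11b (0.129), a solute carrier gene of the sugar transporter family. Reads of chrdl2 were few, with 6, 5 and 11 counts in ZMEL1 and 18, 27 and 14 counts in ZMELR1, so its place is uncertain. Neither chrdl2 nor efnb2b passed (edgeR adjusted p = 0.0651 and 0.107, or 0.0339 and 0.0381 with the block). The gene slc2a11b had 115, 78.6 and 178 CPM in ZMEL1 and 260, 251 and 384 CPM in ZMELR1 (edgeR adjusted p = 0.066, or 0.00511 with the block). Since these genes were picked as the closest, the differences between AP-2 genes are larger by the way of picking. The root mean square difference was 0.288 between tfap2c and tfap2e, 0.521 between tfap2a and tfap2c and 0.666 between tfap2a and tfap2e. The median over all genes was 0.848 for tfap2e and 0.694 for tfap2c. To tfap2e, 78 other genes were closer than tfap2c, and to tfap2c, 463 were closer than tfap2e. To tfap2a, 3067 were closer than tfap2c.

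**Figure D4:**
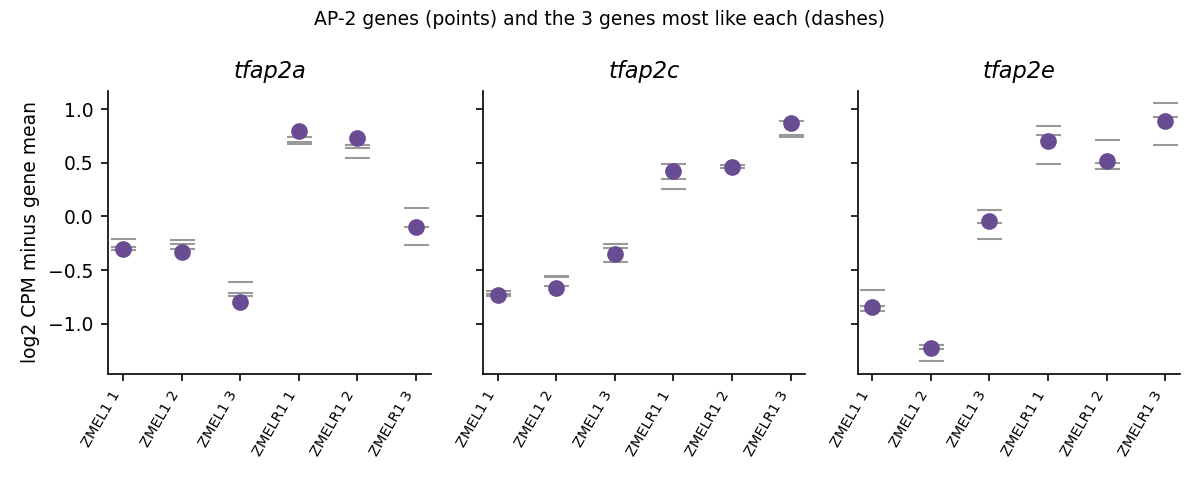
Log2 CPM minus the gene's mean in the 6 libraries for tfap2a, tfap2c and tfap2e (purple points) and the 3 genes most like each (grey dashes). Replicate 3 is the lowest of each line for tfap2a and the highest of each line for tfap2c and tfap2e.

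AP-2 proteins work with coactivators of the CITED and CBP/p300 families and are held back by proteins of the KCTD1 and KCTD15 type. Of 13 such partners and inhibitors tested, cited4b rose, none fell and 12 did not pass, where 3.62% of all genes rose and 2.68% fell. Their median log2FC was 0.15. The coactivator gene cited4b had 22.7, 19.7 and 15.8 CPM in ZMEL1 and 40.4, 33.1 and 41.8 CPM in ZMELR1 (log2FC 0.99, edgeR adjusted p = 0.0335). No call remained for cited4b when any 1 library was left out (edgeR adjusted p = 0.0509 to 0.115). With the block 2 of the 13 rose, where 12.9% of all genes did.

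The inhibitor gene kctd15a, whose product binds AP-2 and limits crest formation in zebrafish, had 9.99, 12.4 and 7.10 CPM in ZMEL1 and 14.4, 18.7 and 3.09 CPM in ZMELR1. Replicate 3 was the lowest of each line, and the lines overlapped (log2FC 0.30, edgeR adjusted p = 0.78). For kctd1 the means were 33.4 ± 7.58 and 31.9 ± 13.2 CPM (SD, n = 3 each, edgeR adjusted p = 0.925). The signs of the changes of kctd1 and kctd15a depended on single libraries. No entry was named kctd15b.

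Of 24 other transcription factors of the neural crest tested, sox9b rose, dlx3b and twist2 fell, and 21 did not pass. Their median log2FC was 0.47, and of all genes tested 3.62% rose and 2.68% fell. The homeobox gene dlx3b, a factor of the neural plate border and ectodermal placodes, had 97.3, 72.7 and 111 CPM in ZMEL1 and 24.5, 19.0 and 26.4 CPM in ZMELR1. This was a log2FC of -2.01 (SE 0.221, edgeR adjusted p = 0.00437), and the call held without any 1 library. The SRY-related factor gene sox9b went from 0.528 ± 0.0144 to 1.27 ± 0.220 CPM (SD, n = 3 each, edgeR adjusted p = 0.0434). The basic helix-loop-helix gene twist2 went from 0.279 ± 0.0685 to 0.0305 ± 0.0389 CPM (SD, n = 3 each, edgeR adjusted p = 0.0356). Its reads were few, with 19, 22 and 14 counts in ZMEL1 and 1, 0 and 3 counts in ZMELR1, and it did not pass with limma-voom (adjusted p = 0.0572). The call of sox9b held without ZMELR1 replicate 3 and was lost without any other library (edgeR adjusted p = 0.115 to 0.154), and that of twist2 likewise (0.0633 to 0.142). The crest and glial regulator sox10 had 437, 432 and 384 CPM in ZMEL1 and 608, 597 and 558 CPM in ZMELR1, with no overlap (log2FC 0.49, edgeR adjusted p = 0.113, or 0.0277 with the block). With the block 8 of the 24 rose and 3 fell, against 12.9% and 12% of all genes.

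Of 20 genes of the melanocyte lineage tested, 5 rose and 1 fell, where 3.62% of all genes rose and 2.68% fell. The median log2FC of the 20 was 0.91. The receptor gene kita, which depends on AP-2 factors in zebrafish melanocytes, had 85.0, 93.8 and 116 CPM in ZMEL1 and 198, 253 and 163 CPM in ZMELR1 (log2FC 1.06, edgeR adjusted p = 0.035). Its call held without ZMELR1 replicate 3 and was lost without any other library (edgeR adjusted p = 0.063 to 0.133). The ion exchanger gene slc24a5, needed for melanin formation, had 0.391, 0.329 and 0.229 CPM in ZMEL1 and 5.75, 7.17 and 1.76 CPM in ZMELR1 (log2FC 3.96, edgeR adjusted p = 0.012). This call was lost without any 1 ZMEL1 library (edgeR adjusted p = 0.0529 to 0.0552). MREG, which encodes the melanosome transport factor melanoregulin, rose by a log2FC of 2.80 (edgeR adjusted p = 0.00577).

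The melanosomal transporter gene oca2 moved the other way, from 2.89, 4.12 and 7.35 CPM in ZMEL1 to 0.804, 0.848 and 0.990 CPM in ZMELR1 (log2FC -2.45, edgeR adjusted p = 0.0176). Leaving out ZMELR1 replicate 1 or 2 ended this call (edgeR adjusted p = 0.0795 and 0.0548). The other genes that rose were tyrp1b and myo5aa. The regulator mitfa had 537, 429 and 592 CPM in ZMEL1 and 949, 892 and 832 CPM in ZMELR1, where counts do not separate the mutant gene from the minigene of the cassette (edgeR adjusted p = 0.0589, or 0.0196 with the block). With the block 11 of the 20 rose and 2 fell, where 12.9% of all genes rose and 12% fell.

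The melanin synthesis genes tyr and dct also varied between replicates. The gene tyr, which encodes tyrosinase, had 6.34, 7.33 and 3.30 CPM in ZMEL1 and 22.3, 28.5 and 8.84 CPM in ZMELR1, lowest in replicate 3 of each line as tfap2a was. The lines did not overlap (log2FC 1.82, edgeR adjusted p = 0.0702, or 0.00336 with the block). The gene dct, which encodes dopachrome tautomerase, was instead highest in replicate 3 of each line, with 1.97, 2.97 and 8.76 CPM in ZMEL1 and 1.13, 1.41 and 25.8 CPM in ZMELR1. The direction of the difference between lines rested on ZMELR1 replicate 3 (log2FC 1.03 with it and -1.84 without it, edgeR adjusted p = 0.631 and 0.157).

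Genes linked to AP-2 in epidermis and in human tumors were taken as the last list. Of 15 tested, none rose, erbb2 and krt4 fell and 13 did not pass, where 3.62% of all genes rose and 2.68% fell. The median log2FC of the 15 was -0.11. With the block 1 rose and 4 fell, where 12.9% and 12% of all genes did. The counts were the same with DESeq2, which called 2357 of the 16589 genes in either direction. At an unadjusted p under 0.05 in edgeR 2 were higher and 4 lower. That cutoff was met by at least 3456 of all 16589 genes tested, in either direction. The receptor tyrosine kinase gene erbb2, which AP-2 factors activate in human breast cancer cells, had 5.20, 5.94 and 2.70 CPM in ZMEL1 and 0.684, 0.473 and 0.470 CPM in ZMELR1. All ZMELR1 libraries lay below all ZMEL1 libraries, a log2FC of -3.08 (SE 0.399, edgeR adjusted p = 0.0077), and the call held without any 1 library. The keratin gene krt4, also counted among the keratinocyte markers, fell from 6.74 ± 1.37 to 1.53 ± 0.389 CPM (SD, n = 3 each, edgeR adjusted p = 0.00978), a call that ended without ZMELR1 replicate 1 (edgeR adjusted p = 0.0512). The cadherin gene cdh1 had 7.59, 7.16 and 14.7 CPM in ZMEL1 and 2.52, 2.33 and 16.4 CPM in ZMELR1, highest in replicate 3 of each line. It did not pass with all libraries (edgeR adjusted p = 0.733) and fell without ZMELR1 replicate 3 (log2FC -2.01, edgeR adjusted p = 0.0337).

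**Figure D5:**
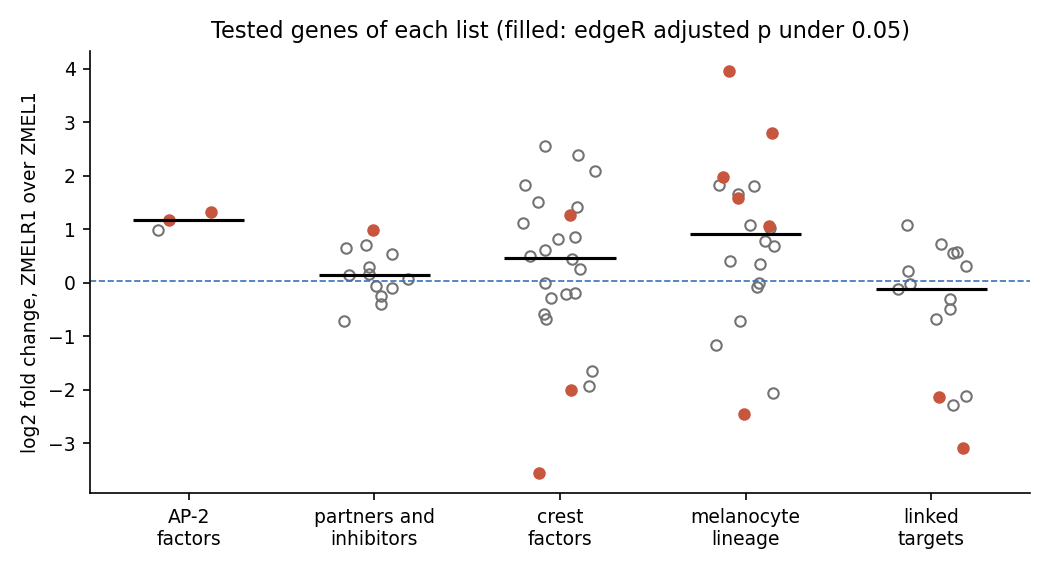
Log2 fold change, ZMELR1 over ZMEL1, of every tested gene among the AP-2 factors, their partners and inhibitors, other neural crest factors, melanocyte lineage genes and AP-2 linked targets, with filled points past an edgeR adjusted p of 0.05. Black bars mark the list medians (1.17, 0.15, 0.47, 0.91 and -0.11) and the dashed line the median of all tested genes (0.02), and points are spread sideways only for display.

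AP-2 genes are also used by keratinocytes and neurons, so markers of other cell types were read beside them. For this and the following lists, 3.62% of all genes tested rose and 2.68% fell in edgeR without the block. Of 7 keratinocyte markers tested, evpla rose, krt4 fell and 5 did not pass. With the block 2 were higher and 3 lower (12.9% and 12% of all genes), and with DESeq2 1 was higher and 3 were lower. DESeq2 called 2357 of all 16589 genes tested in either direction. The summed level of the 15 with an entry in the count table was 133 to 158 CPM in ZMEL1 and 153 to 191 CPM in ZMELR1. The median log2FC of the 7 keratinocyte markers tested was instead -0.48, and only 3 of them had a positive log2FC. Of 8 neuron markers tested mapta rose. Its call ended without ZMEL1 replicate 1 or 3 or ZMELR1 replicate 1 or 2 (edgeR adjusted p between 0.0556 and 0.0703). The median log2FC of the 8 was -0.33, and the block and DESeq2 each called 1 higher and 1 lower. The summed level of the 13 with an entry was 101 to 114 CPM in ZMEL1 and 73.2 to 119 CPM in ZMELR1. Of 7 markers of glia and Schwann cells tested, mbpa and pou3f1 rose and fabp7a fell. The call of pou3f1 held without ZMELR1 replicate 3 and ended when any other library was left out (edgeR adjusted p between 0.0615 and 0.118), that of mbpa ended without ZMEL1 replicate 1 or 2 or ZMELR1 replicate 1 (0.0627 to 0.069), and that of fabp7a without ZMEL1 replicate 1 (0.0529). The summed level of 12 went from between 1574 and 3063 CPM in ZMEL1 to between 356 and 680 CPM in ZMELR1, nearly all of it fabp7a, a fatty acid binding protein gene (3028, 1549 and 2271 CPM in ZMEL1 and 634, 321 and 326 CPM in ZMELR1). Endothelial markers had 2 that fell of 5 tested, fli1a and vwf, while the other 3 had a positive log2FC and the median log2FC was 0.37. The summed level was 31.8 to 98.2 CPM in ZMEL1 and 5.74 to 9.14 CPM in ZMELR1. Most of the ZMEL1 sum was vwf (26.8, 37.0 and 93.6 CPM in ZMEL1 and 0.890, 0.947 and 0.990 CPM in ZMELR1). Of 7 leukocyte markers btk fell, at 0.442 CPM or less, and of 8 markers of xanthophores and iridophores xdh fell. In each of these lists DESeq2 called 1 higher and 1 lower. The summed leukocyte level was instead higher in ZMELR1, with 9.21 to 10.9 CPM in ZMEL1 and 12.8 to 30.1 CPM in ZMELR1. The median log2FC of the 7 leukocyte markers tested was -0.55, and only 3 of them had a positive log2FC. That of xanthophore and iridophore markers overlapped, with 58.3 to 98.8 CPM in ZMEL1 and 54.3 to 74.6 CPM in ZMELR1. The call of fli1a ended without ZMEL1 replicate 1 or 2 or ZMELR1 replicate 1 or 2 (edgeR adjusted p between 0.0522 and 0.0759), and that of btk without ZMEL1 replicate 1 or ZMELR1 replicate 1 or 2 (0.0518 to 0.0617). None of the 11 fibroblast and 5 muscle markers tested passed in edgeR without the block or in limma-voom, while with the block 1 fibroblast marker rose and 3 fell and 1 muscle marker rose. Without the block an unadjusted p under 0.05 in edgeR was met by 3 higher and 3 lower fibroblast markers and 1 higher muscle marker. At least 3456 of all 16589 genes tested met it as well, in either direction. DESeq2 called 2 higher and 1 lower fibroblast marker. The part of these markers in the AP-2 values was not tested.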

How the data were processed

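RNA from 3 libraries each of ZMEL1 and ZMELR1 was compared. The authors aligned polyA RNA reads to Zv9 with TopHat2 and deposited HTSeq counts per gene name of the Ensembl annotation, whole numbers with no normalization. The strand setting and counting mode are not given in the sources used here, so overlapping or antisense genes may share reads.

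Counts were tested with edgeR 4.0.16 in R 4.3.3, using filterByExpr (least count 10, least total 15), TMM and Benjamini-Hochberg adjustment over 16589 genes. The authors' methods name limma, while their results section names DESeq2. Log2 CPM used a prior count of 2. The alternatives were DESeq2 1.42.0, limma-voom (limma 3.58.1), other scalings and filters, the block, and libraries left out, and tests were tried on simulated data. Figures used matplotlib 3.10.9. Intervals cover counting error only and take each count as a separate read.

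Replicate numbers were checked as pairs before the calls were compared: deviations of log2 CPM from the line means had a correlation of 0.557, 0.588 and 0.509 for replicates 1, 2 and 3 across the lines, and -0.504 to -0.0285 across unequal numbers. Deviations within a line sum to 0, so positive values for equal numbers push those for unequal numbers below 0. The negative values are therefore not a separate observation. The pairing comes from the data, since what the numbers share is not stated.

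The members and lists were chosen with earlier results of these data known. Named were the 5 members, 3 genes most like each tested member among genes without clone names, in each of the first 4 lists up to 4 called genes with the smallest p, genes fixed by name (kctd15a, kctd15b, kctd1, foxd3, sox10, mitfa, kita, dct, tyr and cdh1), and markers of other cell types that passed. Of these, 1 gene is not reported here. Protein and promoter sequences were not used here.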

Additional observations from a re-analysis of the deposited data

How the results depend on the processing

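The direction of tfap2a, tfap2c and tfap2e held under all 14 alternatives. The log2 fold change of tfap2a passed the threshold with DESeq2 (0.96, adjusted p = 0.0231) and with the replicate block (0.95), and ranged from 0.81 to 1.22 with libraries left out (1.04 without replicate 3 of both lines). That of tfap2c ranged from 1.02 to 1.26 with libraries left out. That of tfap2e lost its call in edgeR on genes with at least 1 count in total (1.30, adjusted p = 0.0514) and on genes with at least 10 counts in every library (1.32, adjusted p = 0.067), and ranged from 1.09 to 1.70 with libraries left out. For tfap2b and tfap2d the log2 ratios ranged from -1.82 to -0.41 and from 1.30 to 2.14 with libraries left out, and the other tools and the strict filter gave them no value. Of all genes 463 passed under the strict filter of 10 counts in each library, 2357 with DESeq2, 4125 with the replicate block and 303 to 1149 with libraries left out, against 1044. AP-2 partners and inhibitors past the threshold numbered 0 with at least 1 count in total, 2 with DESeq2, 2 with the replicate block and 0 with libraries left out, against 1. Neural crest factors numbered 11 with DESeq2, 11 with the replicate block and 1 to 5 with libraries left out, against 3. Melanocyte lineage genes numbered 3 under the strict filter, 13 with the replicate block and 2 to 8 with libraries left out, against 6. AP-2 linked targets numbered 4 with library size only, 5 with DESeq2, 5 with the replicate block and 1 to 5 with libraries left out, against 2. The sign turned for dct with limma-voom (-0.30) and with the replicate block (-0.0050), and its values with libraries left out ran from -1.84 to 1.90 (-0.996 without replicate 3 of both lines). Those of kctd1 ran from -0.35 to 0.23 (0.069 without replicate 3 of both lines) and those of kctd15a from -0.18 to 0.76. The cause was not tested. With 1 library left out a line keeps 2, and the spread is pooled across the lines. Depth limits tfap2b and tfap2d, which had at most 15 reads in a library.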
